A study of Mus musculus with 36 samples.

Results

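The comparison described here set all gavaged brains of mice with experimental autoimmune encephalomyelitis (EAE) against the brains of EAE mice that were not gavaged. The groups compared hold 28 of the 36 libraries of the study. Of these, 10 were from mice given a daily dose of 100 mg/kg farnesol (trans,trans-farnesol, an isoprenoid alcohol) dissolved in corn oil. Another 9 were from mice given corn oil alone (vehicle), and 9 from EAE mice left untreated. A further 8 libraries from naive mice are given beside them for orientation. The naive libraries also entered the gene filter, the scaling and the estimate of spread behind the p-values. All mice were wild-type C57BL/6 and each library was made from brain RNA. In the 3 EAE groups disease was induced with the myelin peptide MOG35-55 in complete Freund's adjuvant plus pertussis toxin, so the untreated mice carry the peptide, the adjuvant and the toxin too, and brains were compared at day 19. Both gavaged groups received the daily handling, the tube and the corn oil together, so these cannot be told apart from each other. No naive mice were gavaged, so effects of gavage in EAE cannot be told apart from those in healthy mice. The question was which genes moved alike in both gavaged groups, and genes that differed between farnesol and vehicle were left out.

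EAE is a model of multiple sclerosis in which T cells primed against myelin enter the central nervous system. Daily oral gavage is known to be a stressor for mice and also delivers fat. The gene groups below report on cell states that respond within minutes to hours: chaperones of the endoplasmic reticulum (ER) fold secreted and membrane proteins and are switched on by the unfolded protein response, heat shock proteins fold proteins in the cytosol under the control of HSF1, immediate early genes follow neuronal firing, and clock genes follow the time of day.

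Library totals were 15.4 to 23.6 M counts in the farnesol group, 19.2 to 22.1 M in the vehicle group, 14.7 to 24.2 M in the untreated group and 14.7 to 23 M in the naive group. Some libraries stand apart in ways that the labels do not name. The ribosomal RNA gene CT010467.1 was above 4000 CPM (counts scaled to the library total) in farnesol replicates 4 to 10 and in all 8 naive libraries (called set 2), and below it in farnesol replicates 1 to 3 and in all vehicle and untreated libraries (set 1). Sbp, a gene known for its secreted product in the prostate, was above 1 CPM in vehicle replicates 3 to 5 and untreated replicates 1 to 5, and in no farnesol or naive library. Cerebellar genes were low in farnesol replicate 2, untreated replicate 3 and naive replicate 4. Set 2 holds no vehicle or untreated library, so gavaged and untreated brains cannot be compared within it. All naive libraries are in set 2, so differences of vehicle or untreated from naive libraries cannot be told apart from library set. Beside each gene group, values are given within set 1, without the libraries with Sbp, and with both restrictions.

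Of 18438 genes tested, 177 differed between gavaged and untreated EAE brains at an adjusted p below 0.05 in edgeR's quasi-likelihood test, with both gavaged groups given the same weight. Of all genes tested, 0.336% rose (62 genes) and 0.624% fell (115 genes). Of the 177, 133 shifted alike, meaning that they had the same sign in both gavaged groups and an unadjusted p of 0.05 or more for farnesol minus vehicle. Of these, 38 rose and 95 fell. When the naive libraries were kept out of the fit (28 EAE libraries alone), 86 genes differed and 73 shifted alike. A missed p does not show that the gavaged groups were equal. The median size of the farnesol minus vehicle difference over the 133 genes was 0.05 on the log2 scale and its largest was 0.45, sizes that the selection keeps small. The shifts were small: the median log2 change was 0.37 for the rises and -0.25 for the falls, against 0.01 for all genes tested, and 4 of the 133 genes changed more than 2-fold. In whole brain, fewer cells of a type and less RNA per cell cannot be told apart.

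Each gavaged group on its own was compared with the same 9 untreated libraries, so the following comparisons share their controls. Vehicle brains differed from untreated brains in 4 genes (0.0217%), all of which fell and all of which are among the 133. They were Fmnl1, a formin that shapes actin, Kcnip3, a calcium-binding protein also known as DREAM, Synj2, a phosphoinositide phosphatase, and Ier5, an immediate early gene that is known to act on HSF1. Fmnl1 and Synj2 were named after their values were seen. Farnesol brains differed from untreated brains in 345 genes (1.87%), of which 177 rose and 168 fell. Of the 10 farnesol libraries, 7 are in set 2, which holds no vehicle or untreated library. Within set 1, farnesol brains differed from untreated brains in 12 genes and vehicle brains in 1. With library set as a term of the model, the counts were 56 for farnesol and 11 for vehicle. Farnesol and vehicle brains differed in 17 genes (0.0922%) after adjustment, and in 5.59% of genes at an unadjusted p below 0.05, the threshold that removed 44 of the 177. Of the 133 genes, 94 had the larger shift in farnesol brains and 39 in vehicle brains. The part of library set in these counts was not tested.

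**Figure D1:**
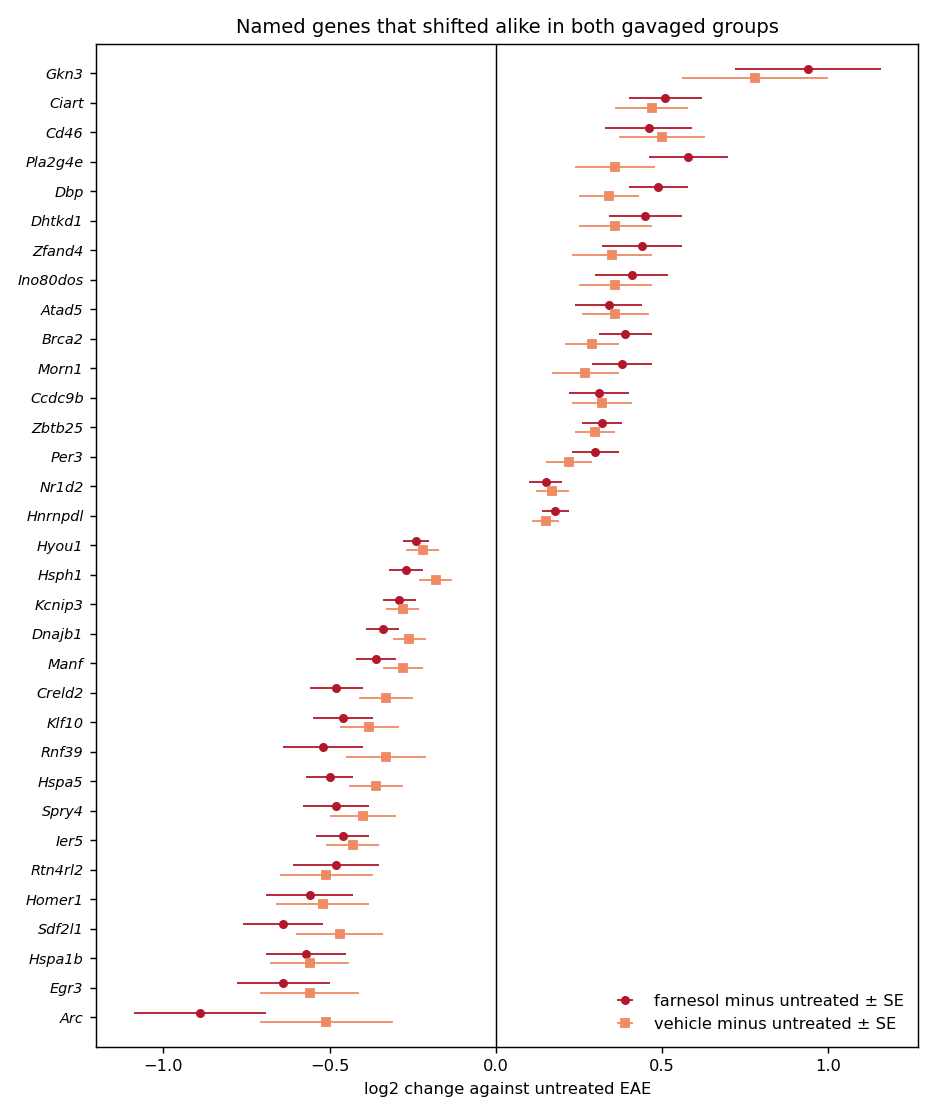
Log2 change ± SE of farnesol (red circles) and vehicle (orange squares) brains against the same untreated brains, for the named genes that shifted alike, without Pomc. Both shifts lie on the same side of 0 for every gene shown, which the choice of genes fixes; Arc is farthest apart, at -0.89 in farnesol and -0.51 in vehicle brains.

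Of 27 tested genes of the list of ER chaperones and the unfolded protein response, 10 fell and 0 rose, 17 did not pass the test, and the list's median log2 change was -0.13. The number that fell was 0 within set 1, 5 without libraries with Sbp, 3 with both restrictions and 4 with library set as a term, and 11 with DESeq2; the list medians under the 3 restrictions were -0.12, -0.19 and -0.13. Of the 10, 9 shifted alike. Calr, the lectin chaperone calreticulin, fell by 0.22 ± 0.05 (SE) but was left out by an unadjusted p of 0.0337 for farnesol minus vehicle (adjusted p = 0.798). Hspa5 encodes BiP, the main ER chaperone and a standard marker of the unfolded protein response. Its lowest, median and highest values were 220, 265 and 330 CPM in farnesol libraries, 248, 274 and 359 CPM in vehicle libraries, 339, 380 and 428 CPM in untreated libraries and 247, 277 and 292 CPM in naive libraries. In 17 of the 19 gavaged libraries Hspa5 was below every untreated library, and the ranges of gavaged and naive libraries overlapped. Hspa5 fell by 0.43 ± 0.06 on the log2 scale (adjusted p = 0.000505), by 0.50 in farnesol and by 0.36 in vehicle brains.

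Manf, a secreted ER stress-inducible neurotrophic factor, measured 32.4, 39.4 and 45.2 CPM in farnesol, 35.4, 41.5 and 49.4 CPM in vehicle, 44, 51.4 and 53.8 CPM in untreated and 37.6, 43.1 and 46.2 CPM in naive libraries (lowest, median, highest). It fell by 0.32 ± 0.05 (adjusted p = 0.000583), and its call was lost within set 1 (adjusted p = 0.059). All 19 gavaged libraries lay below the untreated median, and 15 lay below every untreated library. Sdf2l1, an ER resident partner of BiP's co-chaperones, measured 7.9, 10.6 and 16.4 CPM in farnesol, 8.06, 13.3 and 18.2 CPM in vehicle, 14.3, 18.2 and 20.7 CPM in untreated and 9.13, 9.99 and 11.8 CPM in naive libraries. Sdf2l1 had the largest fall of the list, 0.56 ± 0.11 (adjusted p = 0.00432), and its vehicle libraries reached from below to within the untreated range. The Sdf2l1 call held without libraries with Sbp (-0.63) and was lost within set 1 (-0.44, adjusted p = 0.217) and with both restrictions (-0.50, adjusted p = 0.152). Creld2, an ER stress-inducible protein, fell by 0.40 ± 0.07, with medians of 14.0 CPM in farnesol, 15.4 CPM in vehicle, 19.8 CPM in untreated and 13.1 CPM in naive libraries. Hyou1, an ER nucleotide exchange factor induced by low oxygen, fell by 0.23 ± 0.04. Both lost their calls under each of the 3 restrictions, where Creld2 stood between -0.37 and -0.42 and Hyou1 between -0.13 and -0.21.

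The other members that fell were the protein disulphide isomerases Pdia4 (by 0.36), Pdia6 (by 0.28) and Pdia3 (by 0.22), and Xbp1 (by 0.32), the transcription factor that is spliced in the unfolded protein response. These 4 shifted alike. Genes of the branch of the response that runs through ATF4 did not pass the test: the log2 change was 0.00 ± 0.05 for Atf4, -0.02 ± 0.04 for Ddit3, which encodes CHOP, and -0.01 ± 0.09 for Chac1. Hsp90b1, the ER form of HSP90, stood at -0.14 ± 0.04 with an adjusted p of 0.0968.

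**Figure D2:**
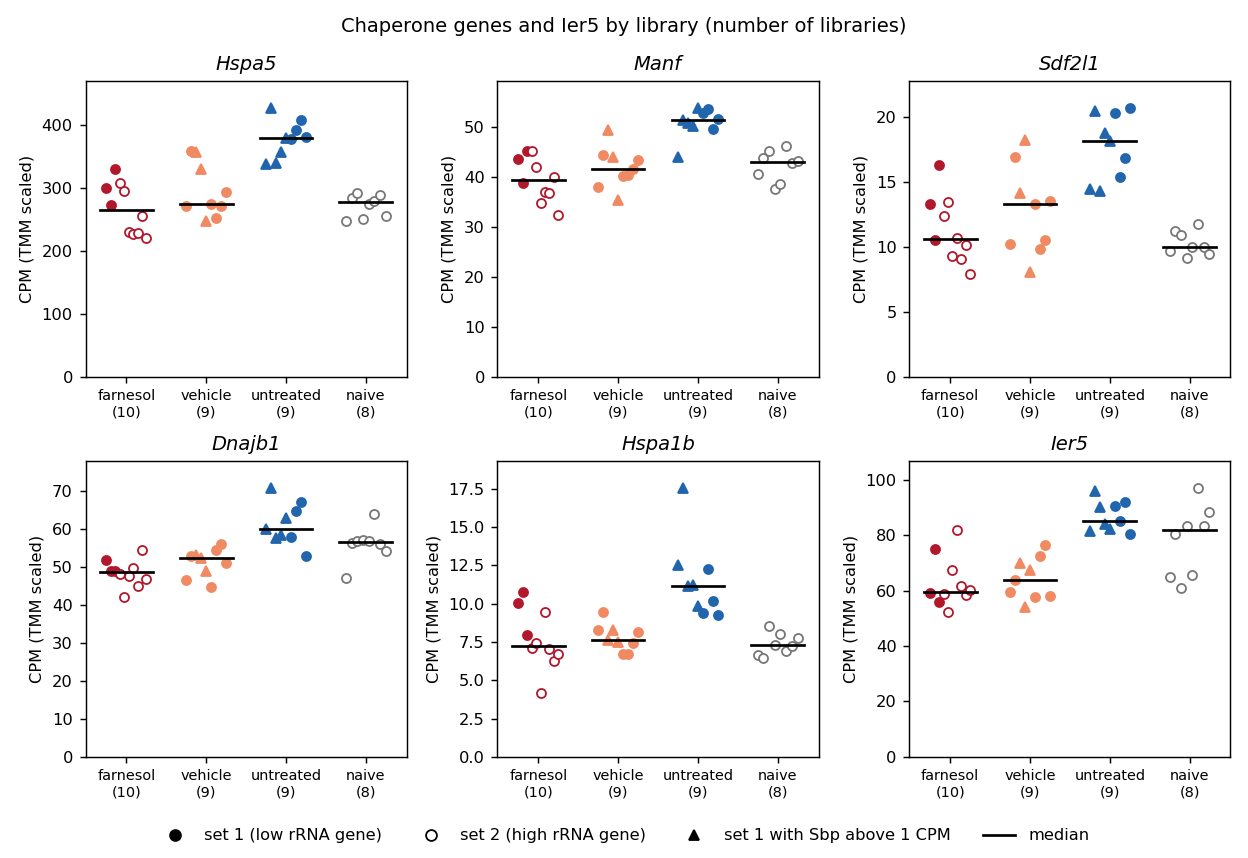
CPM of 5 chaperone genes and Ier5 in each library, with farnesol, vehicle, untreated and naive libraries from left to right. Black bars are medians, open symbols are set 2 and triangles are libraries with Sbp above 1 CPM; the Hspa5 median was 265 CPM in farnesol and 274 CPM in vehicle libraries, against 380 CPM in untreated libraries.

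The regulatory sequences of these genes can be read beside their values. The ER stress response element, to which ATF6 and XBP1 bind, has the letters CCAAT, a gap of 9 bases and CCACG; it was searched on both strands in RefSeq promoter windows of 300 bases (250 before to 50 after the gene start, GRCm38.p6). It was present in 0.119% of 32841 windows of all genes. Of the 10 ER genes that fell, 8 had a window, 1 each, and 4 held it (Calr, Creld2, Hspa5 and Pdia6). The element was not counted in the members of the list that did not pass, so its share cannot be tied to the fall. Of the 108 windows of the 76 matched genes that fell alike, 2.78% held it. The 200 bases before the start of the 3 of these genes that shifted alike are shown, 5′ to 3′ on the gene's strand, with the element in capitals; it begins 65 bases before the start in Hspa5, 126 in Creld2, where it lies in the reverse orientation, and 98 in Pdia6. All 3 genes are on the plus strand, Hspa5 at chr2:34771890-34772089, Creld2 at chr15:88819446-88819645 and Pdia6 at chr12:17266389-17266588.
Hspa5: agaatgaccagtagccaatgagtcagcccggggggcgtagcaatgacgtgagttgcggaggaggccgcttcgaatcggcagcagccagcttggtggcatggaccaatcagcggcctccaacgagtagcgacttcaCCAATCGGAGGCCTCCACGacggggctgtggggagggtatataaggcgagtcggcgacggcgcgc
Creld2: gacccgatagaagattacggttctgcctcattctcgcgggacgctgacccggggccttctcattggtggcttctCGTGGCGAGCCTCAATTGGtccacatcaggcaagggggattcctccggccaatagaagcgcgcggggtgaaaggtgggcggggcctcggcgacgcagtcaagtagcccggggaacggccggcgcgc
Pdia6: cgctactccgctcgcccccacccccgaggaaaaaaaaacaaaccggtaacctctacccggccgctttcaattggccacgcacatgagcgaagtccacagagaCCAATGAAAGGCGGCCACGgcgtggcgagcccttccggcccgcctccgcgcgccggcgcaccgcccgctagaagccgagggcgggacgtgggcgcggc
The match is a description of the letters and was not tested as a site.

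The list of cytosolic heat shock genes also holds Ier5, which encodes no chaperone. Of its 25 tested genes, 6 fell, Ier5 among them, 0 rose and 19 did not pass the test. The median log2 change was -0.12, and 5 of the 6 shifted alike. The number that fell was 2 within set 1 and 2 without libraries with Sbp, Dnajb1 and Ier5 each time, and 0 with both restrictions. Dnajb1, an HSP40 co-chaperone that is a standard target of HSF1, measured 42.2, 48.6 and 54.7 CPM in farnesol, 44.8, 52.3 and 56.2 CPM in vehicle, 52.9, 60.0 and 70.8 CPM in untreated and 47.1, 56.6 and 63.9 CPM in naive libraries. It was below every untreated library in 15 of 19 gavaged libraries and fell by 0.30 ± 0.05 (adjusted p = 0.000505), a call that was lost with both restrictions (-0.26, adjusted p = 0.204). Ier5 measured 52.3, 59.7 and 81.8 CPM in farnesol, 54.1, 63.9 and 76.6 CPM in vehicle, 80.6, 85.1 and 96 CPM in untreated and 60.9, 82 and 97 CPM in naive libraries. For Ier5, 18 of 19 gavaged libraries were below every untreated library, and the fall was 0.45 ± 0.07 (adjusted p = 0.000547), with 0.46 in farnesol and 0.43 in vehicle brains.

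Hspa1b, which encodes inducible HSP70, fell by 0.56 ± 0.10, with medians of 7.27 CPM in farnesol, 7.66 CPM in vehicle, 11.2 CPM in untreated and 7.29 CPM in naive libraries. Its near-identical neighbour Hspa1a stood at -0.16 ± 0.09 (adjusted p = 0.452), and since reads may be split between the pair, both values are uncertain. Hspa1b lost its call under each restriction, at -0.41 within set 1, -0.41 without libraries with Sbp and -0.25 with both. Hsph1, an HSP110 that exchanges the nucleotide of HSP70, fell by 0.23 ± 0.05 but lost its call under each restriction, at -0.16, -0.11 and -0.04. With all libraries, Hspa8, the constitutive HSC70, fell by 0.18 ± 0.04, and Dnaja4, an HSP40, by 0.17 ± 0.04. Hspa8 was the member left out by an unadjusted p below 0.05 for farnesol minus vehicle (p = 0.0363, adjusted p = 0.821). The transcription factor gene Hsf1 itself stood at -0.05 ± 0.05.

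The heat shock element was searched as TTCNNGAA or GAANNTTC, and 15.1% of all windows held it. Of 8 windows of the 5 matched genes of the heat shock list that fell, 4 held it (in Dnaja4, Hspa1b and Hsph1). So did 13.9% of the windows of all genes that fell alike. Members of the list that did not pass were not counted here either. The 200 bases before the start of Hspa1b (chr17:34959239-34959438, GRCm38.p6, minus strand) are shown because Hspa1b had the largest fall of the list; the match, in capitals, begins 104 bases before the start.
Hspa1b: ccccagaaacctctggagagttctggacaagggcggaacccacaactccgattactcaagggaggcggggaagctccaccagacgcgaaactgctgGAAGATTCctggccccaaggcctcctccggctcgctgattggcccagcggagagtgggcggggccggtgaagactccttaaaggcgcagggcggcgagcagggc

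Of 25 tested immediate early genes, 6 fell with an adjusted p below 0.05, 0 rose and 19 did not pass the test; all 25 had a log2 change below 0 and the median was -0.33. The number that fell was 0 within set 1, 5 without libraries with Sbp, 0 with both restrictions and 0 with library set as a term. Of the 6, Arc, Egr3 and Homer1 shifted alike. Egr1, Fosb and Dusp6 were left out by unadjusted p values of 0.037, 0.0407 and 0.0236 for farnesol minus vehicle (adjusted p = 0.826, 0.846 and 0.74). Arc, a synaptic protein that is transcribed upon neuronal firing, measured 71.8, 106 and 154 CPM in farnesol, 56.1, 147 and 238 CPM in vehicle, 145, 193 and 288 CPM in untreated and 132, 200 and 221 CPM in naive libraries. It fell by 0.70 ± 0.17 (adjusted p = 0.0313), by 0.89 in farnesol and by 0.51 in vehicle brains, and the vehicle libraries spread from below the untreated range to within it. Egr3, an activity-regulated zinc finger factor, measured 84, 111 and 185 CPM in farnesol, 81.8, 136 and 158 CPM in vehicle, 121, 183 and 245 CPM in untreated and 96.7, 131 and 160 CPM in naive libraries. Egr3 fell by 0.60 ± 0.12 (adjusted p = 0.00965) with all libraries and lost its call under each restriction, at -0.39 within set 1, -0.41 without libraries with Sbp and -0.20 with both. Arc kept its call without libraries with Sbp (-0.93, adjusted p = 0.0251) and lost it within set 1 (-0.70) and with both restrictions (-0.91).

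Homer1, a postsynaptic scaffold with an activity-induced short form, fell by 0.54 ± 0.11 (adjusted p = 0.0128), with medians of 143 CPM in farnesol, 173 CPM in vehicle, 227 CPM in untreated and 163 CPM in naive libraries. It lost its call within set 1 (-0.36), without libraries with Sbp (-0.42) and with both restrictions (-0.24). Fosb fell by 0.57 ± 0.14, Egr1 by 0.47 ± 0.11 and Dusp6, a phosphatase that acts on ERK, by 0.33 ± 0.07. Fos did not pass the test, at -0.51 ± 0.19 (adjusted p = 0.215): its median was 17.3 CPM in farnesol, 35.4 CPM in vehicle and 27.5 CPM in untreated libraries, so the gavaged medians lay on either side of the untreated one. The neuronal activity gene Npas4 stood at -0.21 ± 0.15 (adjusted p = 0.581). The cyclic AMP response element TGACGTCA was in 0 of 4 windows of the 3 matched genes of the 6 and in 1.79% of all windows. It was in 5.56% of the 108 windows of genes that fell alike. With 4 windows, a share of 0 cannot be told apart from that of all windows.

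**Figure D3:**
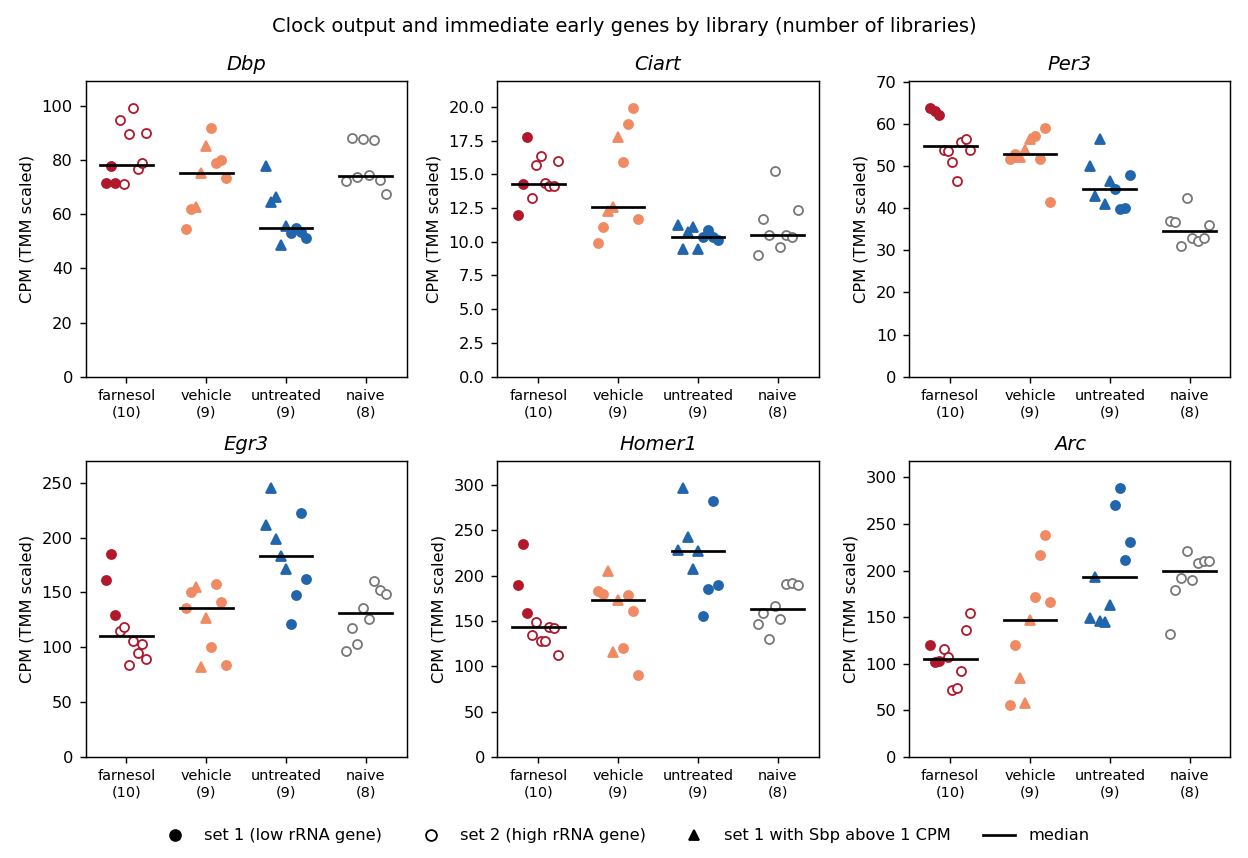
CPM of 3 clock-related genes and 3 immediate early genes in each library, with farnesol, vehicle, untreated and naive libraries from left to right. Symbols and bars are as for the chaperone genes; the Dbp median was 78.4 CPM in farnesol and 75.4 CPM in vehicle libraries, against 54.9 CPM in untreated libraries.

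Of 20 tested clock genes, 4 rose and 0 fell, and all 4 shifted alike, while the median of the list was 0.04. Of the list, 1 gene rose under each of the 3 restrictions, and 1 fell without libraries with Sbp. Dbp is a clock output transcription factor with a steep daily rhythm. It measured 71.4, 78.4 and 99.4 CPM in farnesol, 54.5, 75.4 and 91.9 CPM in vehicle, 48.7, 54.9 and 78 CPM in untreated and 67.4, 74.1 and 88.1 CPM in naive libraries. Dbp was above the untreated median in 18 of 19 gavaged libraries and rose by 0.42 ± 0.08 (adjusted p = 0.00432). Ciart, a repressor of CLOCK and BMAL1 also known as CHRONO, measured 12, 14.3 and 17.8 CPM in farnesol, 9.91, 12.5 and 19.9 CPM in vehicle, 9.43, 10.4 and 11.3 CPM in untreated and 9.02, 10.5 and 15.3 CPM in naive libraries. Ciart was above every untreated library in 17 of 19 gavaged libraries and rose by 0.49 ± 0.10 (adjusted p = 0.00492). Ciart stood between 0.48 and 0.49 under the 3 restrictions but lost its call in each, with adjusted p from 0.106 to 0.312. Dbp kept its call without libraries with Sbp (0.54) and lost it within set 1 (0.34) and with both restrictions (0.47, adjusted p = 0.0592).

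Per3, a period gene, rose by 0.26 ± 0.06 (adjusted p = 0.0228), with medians of 54.8 CPM in farnesol, 52.9 CPM in vehicle, 44.6 CPM in untreated and 34.6 CPM in naive libraries. Nr1d2, which encodes the repressor REV-ERB beta, rose by 0.16 ± 0.04. Per3 lost its call without libraries with Sbp (0.33, adjusted p = 0.0721) and kept it under the other restrictions, and Nr1d2 lost its call under all 3. Members of the same loop stood on the other side of 0 without passing the test: Arntl, which encodes BMAL1, at -0.21 ± 0.05 (adjusted p = 0.0537), Per2 at -0.19 ± 0.08 and Per1 at -0.18 ± 0.12. The labels do not say at what time of day brains were taken.

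The E-box CACGTG, to which CLOCK and BMAL1 bind, was in 7.15% of all windows. It was in 8 of the 35 windows (22.9%) of the 29 matched genes that rose alike. Among genes that fell alike, 9.26% of 108 windows held it. Clock genes that did not pass were not counted, and the shares were not tested. Of the 4 clock genes that rose, Ciart held the E-box. The 200 bases before the start of Ciart (chr3:95882229-95882428, GRCm38.p6, minus strand) hold it 3 times, in capitals, beginning 116, 58 and 44 bases before the start.
Ciart: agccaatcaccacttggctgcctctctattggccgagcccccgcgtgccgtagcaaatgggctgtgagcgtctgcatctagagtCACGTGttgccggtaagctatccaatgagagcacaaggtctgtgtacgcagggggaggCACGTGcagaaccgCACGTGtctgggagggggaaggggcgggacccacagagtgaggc

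Further named falls belonged to none of these lists. Spry4, an inhibitor of receptor tyrosine kinase signalling, measured 11.9, 14.7 and 18.2 CPM in farnesol, 11, 15.7 and 21.9 CPM in vehicle, 17.1, 20.8 and 26.4 CPM in untreated and 18, 22.6 and 24.5 CPM in naive libraries. It fell by 0.44 ± 0.09 (adjusted p = 0.00507). Klf10, an early gene of TGF-beta signalling, measured 16.3, 18.8 and 21.5 CPM in farnesol, 15.3, 19.3 and 25.8 CPM in vehicle, 20.4, 26.5 and 30.5 CPM in untreated and 23.8, 27.8 and 36 CPM in naive libraries, and fell by 0.42 ± 0.07 (adjusted p = 0.0025). For both genes the gavaged medians lay below the medians of untreated and of naive brains. Kcnip3 was like them, with medians of 88.9 CPM in farnesol, 89.3 CPM in vehicle, 104 CPM in untreated and 111 CPM in naive libraries, and fell by 0.29 ± 0.04 (adjusted p = 0.000583). Rtn4rl2, a receptor of the Nogo family in neurons, fell by 0.49 ± 0.12, and Rnf39, a ring finger gene, by 0.42 ± 0.10. Of the 3 restrictions, Spry4 and Klf10 lost their calls in 1, within set 1, at -0.48 (adjusted p = 0.108) and -0.47 (0.0513). Kcnip3 lost its call within set 1 (-0.25) and with both restrictions (-0.20), and Rtn4rl2 and Rnf39 lost theirs under all 3.

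A single gene, Banp, had no overlap between the 19 gavaged and the 9 untreated libraries (0.00542% of genes tested); it was named after its values were seen. Banp, a nuclear DNA-binding protein, measured 22, 25.7 and 30.7 CPM in farnesol, 21.1, 28.9 and 30.6 CPM in vehicle, 31.7, 32.8 and 40.5 CPM in untreated and 21.1, 26.3 and 27.7 CPM in naive libraries. It fell by 0.31 ± 0.06 (adjusted p = 0.00432).

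Among the other rises that shifted alike, Gkn3, a gastrokine family gene that marks arterial endothelium in mouse brain, had the largest named change. It measured 1.1, 2.18 and 3.2 CPM in farnesol, 1.38, 1.93 and 2.92 CPM in vehicle, 0.552, 0.987 and 1.95 CPM in untreated and 1.59, 2.47 and 3.32 CPM in naive libraries, and rose by 0.86 ± 0.20 (adjusted p = 0.0231). All 19 gavaged libraries exceeded the untreated median, yet Gkn3 was near 1 CPM in the untreated group, so each library rests on few counts. Its call was lost within set 1 (0.63), without libraries with Sbp (0.52) and with both restrictions (0.29). Brca2, a DNA repair gene, rose by 0.34 ± 0.07 (adjusted p = 0.0128) and Atad5, which unloads the replication clamp, by 0.35 ± 0.09. Brca2 medians were 12.6 CPM in farnesol, 11.3 CPM in vehicle, 9.48 CPM in untreated and 10.3 CPM in naive libraries. Both lost their calls under each of the 3 restrictions, with Brca2 between 0.31 and 0.33 and Atad5 between 0.28 and 0.39.

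Zbtb25, a zinc finger gene, had the smallest p of the rises: its medians were 12.3 CPM in farnesol, 12.4 CPM in vehicle, 9.72 CPM in untreated and 10.1 CPM in naive libraries, and it rose by 0.31 ± 0.05 (adjusted p = 0.0025). Hnrnpdl, an RNA-binding protein, rose by 0.16 ± 0.04 (adjusted p = 0.0128), with medians of 189 CPM in farnesol, 184 CPM in vehicle, 166 CPM in untreated and 163 CPM in naive libraries. Zbtb25 kept its call without libraries with Sbp (0.37) and lost it under the other restrictions, and Hnrnpdl lost its call under all 3. The other named rises were Cd46, a complement regulator (0.48 ± 0.12), Pla2g4e, a cytosolic phospholipase A2 that makes N-acyl phosphatidylethanolamines (0.47 ± 0.11), Dhtkd1, a mitochondrial dehydrogenase of lysine breakdown (0.40 ± 0.10), Zfand4 (0.40 ± 0.10), the long noncoding RNA gene Ino80dos (0.39 ± 0.10), Morn1 (0.33 ± 0.08) and Ccdc9b (0.32 ± 0.08). Their adjusted p values lay between 0.0223 for Pla2g4e and 0.0486 for Zfand4, and all 7 lost their calls under each of the 3 restrictions; Pla2g4e reached 0.12 with both. Ino80dos is named for its position opposite Ino80d, and whether counting used strand is not stated, so its value is uncertain.

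Pomc, the precursor of ACTH and melanocortins, was called among the falls but rests on a single library. Its lowest, median and highest values were 0.71, 4.61 and 22.8 CPM in farnesol, 0.755, 1.91 and 29.3 CPM in vehicle, 1.03, 1.56 and 350 CPM in untreated and 1.58, 3.35 and 8.21 CPM in naive libraries. The 350 CPM belong to untreated replicate 3, which is also low in cerebellar genes. The medians of farnesol and of vehicle libraries both lay above that of untreated libraries. The log2 change was -2.89 ± 0.73 with that library and 1.19 without it, where it did not pass the test.

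The 44 genes left out had an unadjusted p below 0.05 for farnesol minus vehicle, and 9 of them passed that test after adjustment. CT010467.1, which defines the library sets, is among the 44. Since 7 of the 10 farnesol libraries and no vehicle library are in set 2, these differences cannot be told apart from library set. Over all genes, farnesol against vehicle gave 0 calls within set 1 and 1 with library set as a term. Plat, which encodes tissue plasminogen activator, had the smallest p of the pooled comparison, and fell by 0.42 in farnesol and by 0.18 in vehicle brains. Its medians were 31.8 CPM in farnesol, 37 CPM in vehicle, 43 CPM in untreated and 37.7 CPM in naive libraries, and the farnesol minus vehicle difference was -0.24 (adjusted p = 0.0477). Lncpint, a long noncoding RNA gene, had medians of 3.25 CPM in farnesol, 1.86 CPM in vehicle, 1.18 CPM in untreated and 2.31 CPM in naive libraries, with a farnesol minus vehicle difference of 0.89 (adjusted p = 0.0312). Dusp4, a phosphatase that acts on ERK, fell by 0.61 in farnesol and by 0.40 in vehicle brains, and Dpp9, a dipeptidyl peptidase, by 0.22 in farnesol and by 0.12 in vehicle brains; their farnesol minus vehicle adjusted p values were 0.871 and 0.721. At the threshold, Epop (adjusted p = 0.049) and Ephb3 (0.0486) lay just inside, and Syt13 and Grik2 (0.0502 each) just outside.

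No gene of the lists of neutrophils, monocytes and macrophages, T cells, B cells, homeostatic microglia, MHC class II, complement, interferon, astrocytes, oligodendrocyte precursors or myelin passed the test with all libraries. In other settings, 3 of 7 B cell and plasma cell genes fell without libraries with Sbp, 1 of them fell with both restrictions and 1 with Sbp as a term, and 1 reactive astrocyte gene fell with voom. Cd74, a marker of MHC class II cells, had medians of 81.7 CPM in farnesol, 67.1 CPM in vehicle, 193 CPM in untreated and 8.09 CPM in naive libraries, with a log2 change of -0.30 ± 0.50. The sign of Cd74 turned with the libraries used: it stood at 0.17 within set 1, -1.35 without libraries with Sbp and -0.88 with both restrictions, without passing the test. Gfap, the intermediate filament of astrocytes, stood at -0.29 ± 0.23 (-0.13 within set 1 and -0.79 without libraries with Sbp), Lcn2, which reactive astrocytes release, at -0.04 ± 0.19 and Mbp, a myelin protein, at 0.01 ± 0.08. Without libraries with Sbp, all 11 MHC class II genes stood below 0 (median -0.90), as did all 22 interferon-stimulated genes (-0.78); within set 1, all 11 MHC class II genes and 19 of the 22 stood above 0 (0.22 and 0.21). With all libraries their medians were -0.11 and 0.04. Of 13 neutrophil genes, 10 stood above 0 (median 0.34), and 9 did without libraries with Sbp (0.12). Of 16 monocyte and macrophage genes, 12 stood above 0 (0.14), but 4 did without libraries with Sbp (-0.26). Of 13 T cell genes tested, 12 stood below 0 with all libraries (median -0.24) and 8 above 0 within set 1 (0.06), while all 13 were below 0 without libraries with Sbp (-0.68), and their summed level was 18.6 to 45.1 CPM in farnesol, 19 to 47.1 CPM in vehicle, 16.8 to 40.6 CPM in untreated and 14.5 to 20.9 CPM in naive libraries.

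Lists that bear on stress hormones, feeding and fat showed few calls. Of 23 tested genes of the glucocorticoid response, 1 fell and 0 rose: Cdkn1a, which encodes the cell cycle inhibitor p21, fell by 0.60 ± 0.13 (adjusted p = 0.0177), with medians of 18.9 CPM in farnesol, 27.4 CPM in vehicle, 34.4 CPM in untreated and 18.4 CPM in naive libraries. It was left out by an unadjusted p of 0.00488 for farnesol minus vehicle (adjusted p = 0.473). The glucocorticoid targets Fkbp5 at -0.00 ± 0.16, Sgk1 at -0.19 ± 0.17 and Tsc22d3 at -0.04 ± 0.09 did not pass the test. Of the hypothalamic peptides other than Pomc, Crh, the releasing hormone of the stress axis, stood at -0.11 ± 0.11, Npy at -0.14 ± 0.09 and Agrp at 0.06 ± 0.19.

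Of 22 tested genes of the FOXO and fasting response, Irs2, an insulin receptor substrate, fell by 0.26 ± 0.06 and Trib1, a pseudokinase, by 0.35 ± 0.09, and both were left out by unadjusted p values of 0.0231 and 0.033 for farnesol minus vehicle (adjusted p = 0.74 and 0.796). None of 27 PPAR targets and genes of fat oxidation passed the test; 15 stood above 0 and 12 below. In the list of mevalonate and cholesterol synthesis, the pathway that makes farnesol's phosphorylated form, 1 gene of 25 was called: Lss, lanosterol synthase, shifted alike and rose by 0.20 ± 0.05. Elsewhere, Cirbp, a cold-inducible RNA-binding protein, rose by 0.30 ± 0.07 and Pfkfb3, an activator of glycolysis, fell by 0.25 ± 0.06, and both shifted alike.

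**Figure D4:**
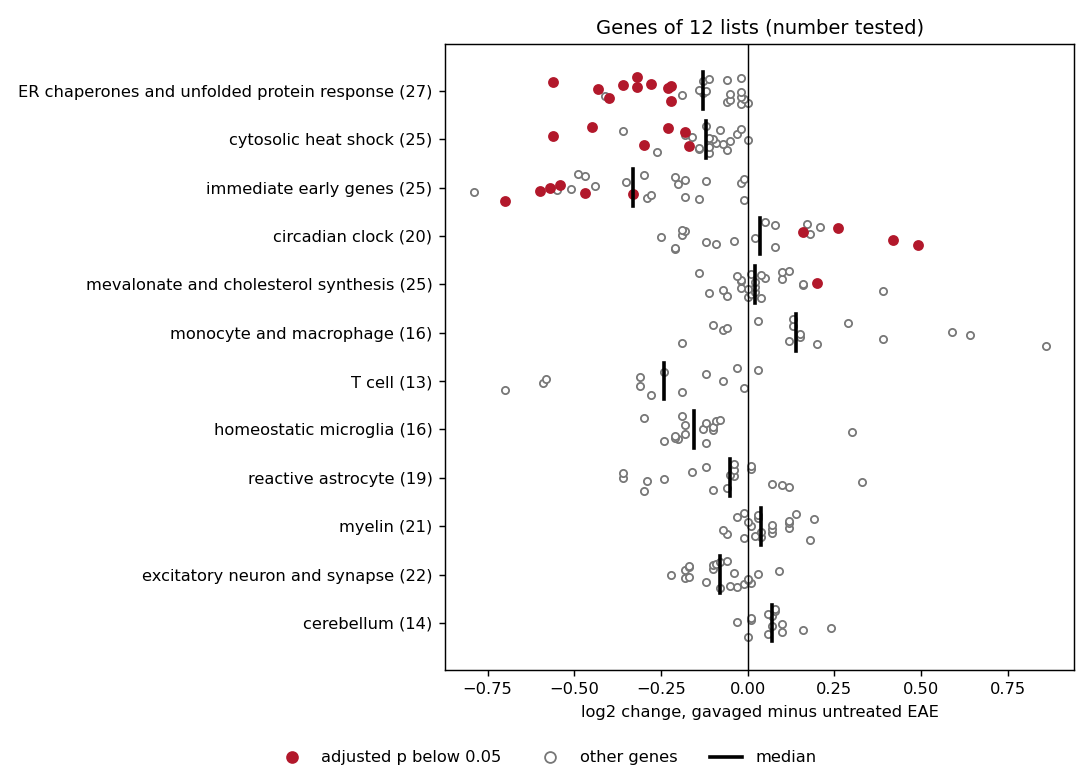
Log2 change, gavaged minus untreated, of each tested gene in 12 lists, with genes past the test in red and the list median as a black bar. The list medians were -0.13 for ER chaperones, -0.12 for heat shock genes and -0.33 for immediate early genes, and the red points lie below 0 in those lists and above 0 for clock genes.

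The libraries that stand apart change how many genes pass. The libraries of each restriction below are among those that chose the 133 genes, so kept signs and counts of calls are a description. Within set 1, 3 farnesol, 9 vehicle and 9 untreated libraries remain. All 133 genes kept their sign there, with a median 0.90 of the full change. However, 12 genes were called in all, 8 of them among the 133, and 5 shifted alike. Without libraries with Sbp above 1 CPM (10 farnesol, 6 vehicle and 4 untreated left), 132 of the 133 kept their sign. There 61 genes were called, 17 of them among the 133. Among the libraries with Sbp above 1 CPM alone (3 vehicle and 5 untreated), 128 of the 133 could be tested, all 128 had the same sign in vehicle minus untreated, which the choice of genes favours, and edgeR called 0 of the 17856 genes tested (1007 had an unadjusted p below 0.05); with no farnesol library there, farnesol has no value. With both restrictions, 130 of the 133 kept their sign, and 18 genes were called, 6 of them among the 133. Of the 11 genes that shifted alike there, 5 are among the 133. The part of library set and of Sbp in the counts was not tested.

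Over 14 alternative settings, apart from leaving out single libraries, 1 of 42 rule-named genes that passed the test kept its call throughout. That gene was Plat, which was left out for differing between farnesol and vehicle. Every rule-named gene that shifted alike lost its call in at least 1 setting, and Morn1 in 11. Hspa5 moved between -0.34 and -0.50 over the 14 settings and lost its call in 1 of them (within set 1, adjusted p = 0.0672). Ier5 moved between -0.44 and -0.46 and also lost its call in 1 (both restrictions, adjusted p = 0.135).

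**Figure D5:**
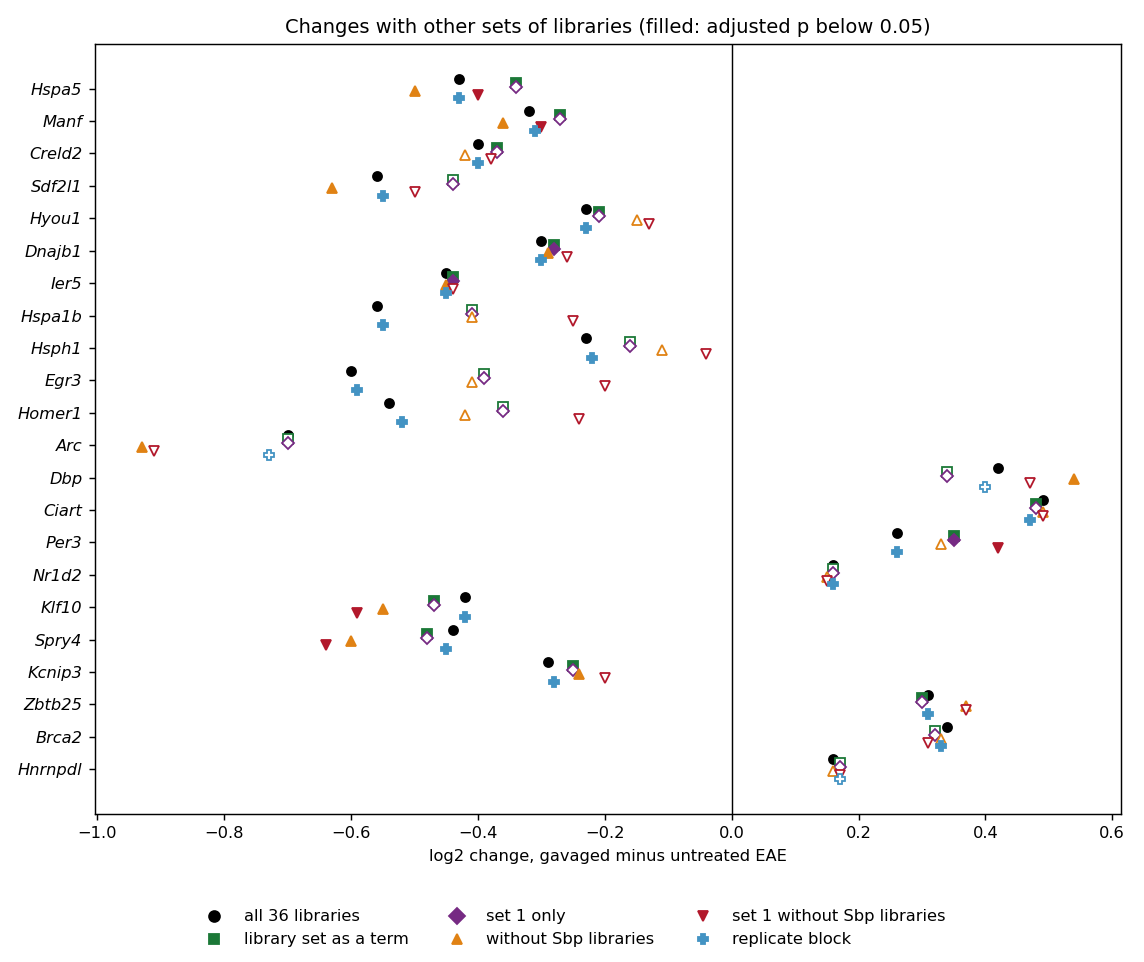
Log2 change, gavaged minus untreated, of 22 named genes with all libraries (black) and under 5 other choices of libraries or model, with filled symbols for an adjusted p below 0.05. Ier5 stays between -0.44 and -0.46, while Hsph1 reaches -0.04 in set 1 without the libraries with Sbp.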

How the data were processed

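The values are raw counts that the authors deposited for 54532 Ensembl genes in each library. Mapping used STAR 2.5 and mm10, per the submitters' processing notes, and the labels' extraction protocol also names Kallisto. Neither the counting tool nor its annotation nor its strand setting is given in the sources used here. Symbols came from GENCODE M21, which named 54495 genes.

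Genes were kept with filterByExpr (minimum count 10, total 15), libraries were scaled by TMM, and edgeR 4.0.16 in R 4.3.3 (glmQLFit, glmQLFTest) fitted 1 mean for each of the groups in all 36 libraries. The main contrast is the mean of farnesol and vehicle minus untreated. Benjamini-Hochberg adjustment covered all 18438 tested genes, and adjusted p below 0.05 was called; SE is the log2 change over the square root of F. CPM use TMM-scaled library sizes. Total counts of 14.7 to 24.2 M per library set the precision. The procedure was tested on simulated counts without library set, Sbp or cerebellar differences, so that test cannot bear on those. P-values measure the spread between these libraries; nothing in the labels says more of how the samples were raised.

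Named genes follow a rule: among genes that shifted alike, with a mean of at least 1 CPM and no predicted loci, the 12 largest rises and falls and the 5 of smallest p in each direction; up to 4 members of each described list and 4 of the genes left out; and Cd74, Gfap, Lcn2, Mbp, CT010467.1 and Sbp. Other genes are described as list members, or said to be named after their values were seen. The members and lists were chosen with earlier results of these data known. Alternatives were RLE scaling, DESeq2 1.42.0, voom in limma 3.58.1, other filters, the EAE libraries alone, a replicate block, library set, Sbp and each library left out; those with Sbp as a term, with set 1 without Sbp libraries and with the Sbp libraries alone were chosen after seeing the data. Figures used matplotlib 3.10.9.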

Additional observations from a re-analysis of the deposited data

Results flagged for a closer look

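Of 184 sets of libraries (46 named genes in 4 groups), 11 had a library far from the rest of its group by Dixon's test, and chance alone gives about 1 in 20. Pomc was far above the group in farnesol replicate 7 (22.8 CPM), vehicle replicate 8 (29.3 CPM) and untreated replicate 3 (350 CPM). Hspa1b was high in untreated replicate 2 (17.5 CPM), and Manf was low in untreated replicate 1 (44 CPM), which brings that library nearer to the gavaged ones. Per3 was low in vehicle replicate 9 (41.6 CPM). Cd74 was high in farnesol replicate 3 (557 CPM) and vehicle replicate 4 (935 CPM), and Gfap in farnesol replicate 3 (1020 CPM). Among naive libraries, Dpp9 was high in replicate 6 (93.5 CPM) and Hsph1 was low in replicate 1 (283 CPM).

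Farnesol and vehicle brains differed for 3 named genes in edgeR's test after adjustment. The farnesol minus vehicle changes were -0.24 for Plat, 0.89 for Lncpint and 2.21 for CT010467.1 on the log2 scale. CT010467.1 is the gene that defines the library sets, and the 7 farnesol libraries of set 2 are the ones high in it.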

How the results depend on the processing

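Since every setting reuses libraries that chose the 133 genes, kept signs say nothing of stability. Counts are given for gavaged against untreated (177), shifted alike (133), vehicle against untreated (4), farnesol against untreated (345) and farnesol against vehicle (17), in that order. DESeq2 gave 347, 274, 43, 521 and 42. The 28 EAE libraries alone gave 86, 73, 1, 206 and 4, and 1 mean for all gavaged libraries gave 86 and 78. The replicate block gave 89, 71, 9, 120 and 2. Library set as a term gave 50, 29, 11, 56 and 1, and set 1 alone 12, 5, 1, 12 and 0. Leaving out libraries with Sbp gave 61, 49, 0, 225 and 7, Sbp as a term 69, 44, 0 and 148 in the first 4, and set 1 without Sbp libraries 18, 11, 11, 29 and 0. Leaving out libraries low in cerebellar genes gave 353, 269, 1 and 567 in the first 4. Vehicle against untreated gave 7 with RLE, 15 with voom, 8 with a minimum count of 50 and 0 among Sbp libraries alone, and farnesol against untreated gave 229 with a minimum count of 50. Asking both shifts for an adjusted p below 0.05 left 4 genes. With no count filter 22.1% of the calls were rises, 14.6% with the replicate block and 19.7% without Sbp libraries, against 35% as reported. The cause was not tested.

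Leaving out each library gave 68 to 315 pooled calls, 53 to 245 genes shifted alike, 0 to 15 in vehicle against untreated, 210 to 500 in farnesol against untreated and 8 to 36 in farnesol against vehicle. Genes shifted alike numbered 88, 53, 84 and 59 without untreated replicate 1, 2, 5 or 8, and 245, 212 and 207 without farnesol replicate 2, farnesol replicate 7 or untreated replicate 9. Pomc turned to 0.56 with DESeq2, 1.79 without Sbp libraries, 1.13 without libraries low in cerebellar genes, 1.71 in set 1 without Sbp libraries and 1.19 without untreated replicate 3, and ranged from -3.52 to 1.19 when each library was left out. Over 27 pairs of equal replicate number, deviations from group means correlated between -0.45 and 0.53, with 11 pairs over 0.1. Pairs of unequal number were not compared, so whether replicate numbers pair libraries cannot be told.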
